A study of Mus musculus with 15 samples.

Results

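The genes described here encode 7 of the enzymes that build heme in the liver, namely Alas1, Alad, Uros, Urod, Cpox, Ppox and Fech. They were chosen by name, as genes with a probe set that the array annotation ties to exactly 1 gene symbol, and each of the 7 had 1 such probe set among 19938 genes measured in all.

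Liver RNA of 15 male mice aged 7.5 months, give or take 2.5 weeks, was measured on single-colour Affymetrix arrays, 1 array per animal. The mice were PPARα-null animals (129S4/SvJae-Pparatm1Gonz/J, called KO here) and wild-type animals (129S1/SvlmJ, called WT), both bred in a 129/Sv colony. Di(2-ethylhexyl) phthalate (DEHP), a plasticizer and peroxisome proliferator, was given in corn oil by gavage in 4 daily doses of 1150 mg/kg/day, and the controls received the oil alone. The groups were KO given DEHP (3 animals, KO-121 to KO-123), KO given corn oil (4 animals, KO-115 to KO-118), WT given DEHP (4 animals, WT-56 to WT-59) and WT given corn oil (4 animals, WT-52 to WT-55). Every cell of the KO animals lacks working PPARα, and the KO and WT mice come from different substrains, so that genotype and substrain cannot be told apart.

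Heme is an iron-holding porphyrin ring made partly in mitochondria and partly in the cytosol. Its first step, the joining of glycine and succinyl-CoA by ALAS1, limits the rate of synthesis in liver, and heme itself holds Alas1 back. Much of the heme made by hepatocytes goes into cytochromes P450, and drugs that induce P450 genes through the nuclear receptors CAR and PXR are known to raise Alas1 as well. Alas1 is also known to rise with fasting, through the coactivator PGC-1α and FOXO1, and to vary over the day. DEHP acts on the liver through PPARα, the receptor that drives fatty acid oxidation genes and the Cyp4a P450s, and in part through CAR.

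Near the starts of these genes, 3 stretches carry the recognition sequence of NRF1, a factor whose binding to the rat Alas1 promoter is known. They are shown because of that known binding. They were read from RefSeq promoters of build GRCm38.p6, in the 250 bases before each listed start, and the capitals mark a match, on either strand, to GCGCA, any base, then GCGC. The Alas1 stretches lie on the minus strand at chr9:106247935-106247964 and chr9:106247906-106247935, and the Uros stretch lies on the minus strand at chr7:133709323-133709352.
Alas1, first match: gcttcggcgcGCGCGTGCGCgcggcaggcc
Alas1, second match: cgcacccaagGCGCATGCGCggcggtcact
Uros: cggtcacactGCGCCTGCGCgagtcccgcc
Alas1 and Uros each have 2 listed starts, and the matches precede only 1 of them. The first Alas1 match began 224 bases before that start, the second 195 and the Uros match 47. All 3 matches lie within the annotated genes, which run over chr9:106233455-106247954 and chr7:133686142-133710467, and the first Alas1 match begins at the gene's 5′ end. The motif was found in 2 of the 9 windows of the 6 members that have any, and in 3.74% of all 32851 windows. The E-box CACGTG, which the clock factors CLOCK and BMAL1 bind, was found in 4 of the 9, those of Alad, Urod and Uros, and in 6.02% of all windows. The D-box TTACGTAA, bound by DBP, TEF and HLF, was found in no member's window and in 0.113% of all windows.

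The values are the authors' deposited intensities, taken to log2, so that 1 unit is a doubling. The arrays had closely similar medians, between 44.4 and 47.53 on the linear scale, and arrays of the same group correlated at 0.9876 to 0.9915 over genes. Ppara, the gene targeted in the KO mice, read 8.99 to 9.27 in the 7 KO animals and 9.55 to 10.22 in the 8 WT animals; where its probes lie relative to the deleted part is not known here, so the reading does not check the genotype by itself. Cyp4a14, a classic PPARα target, read 13.39 to 13.50 in WT given DEHP and at most 6.74 in any KO animal. The summed level of 7 hepatocyte markers was between 15.99 and 16.13 in every animal, and at most 16.05 in WT given DEHP, where it was 16.08 to 16.09 in WT given corn oil. All tests were limma's moderated test on 1 model of the 15 arrays, with the Benjamini-Hochberg adjustment across the whole gene table and a threshold of 0.05. Errors of differences are standard errors from that model, and those of group means are SDs between animals. Whole livers were measured, so that fewer cells of a type and less RNA per cell cannot be told apart.

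None of the 7 heme synthesis genes passed the test after DEHP, in either genotype. In KO mice, 0 of 7 were called in limma's test, where 0.471% of all genes were, and Cpox and Fech had an unadjusted p under 0.05, as had 12.3% of all genes. In WT mice, 0 of 7 were called, where 3.86% of all genes were, and Uros and Ppox had an unadjusted p under 0.05, as had 16.8% of all genes. The median of the 7 log2 differences was 0.073 in KO mice and 0.175 in WT mice, beside 0.014 and -0.015 over all genes. Of the 7 differences, 6 were above 0 in KO mice and 7 in WT mice, while the P450 genes Cyp2b10 and Cyp2c55 rose 2.93-fold and 4.22-fold in KO livers, and Cyp4a14 rose 31.3-fold in WT livers.

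**Figure D1:**
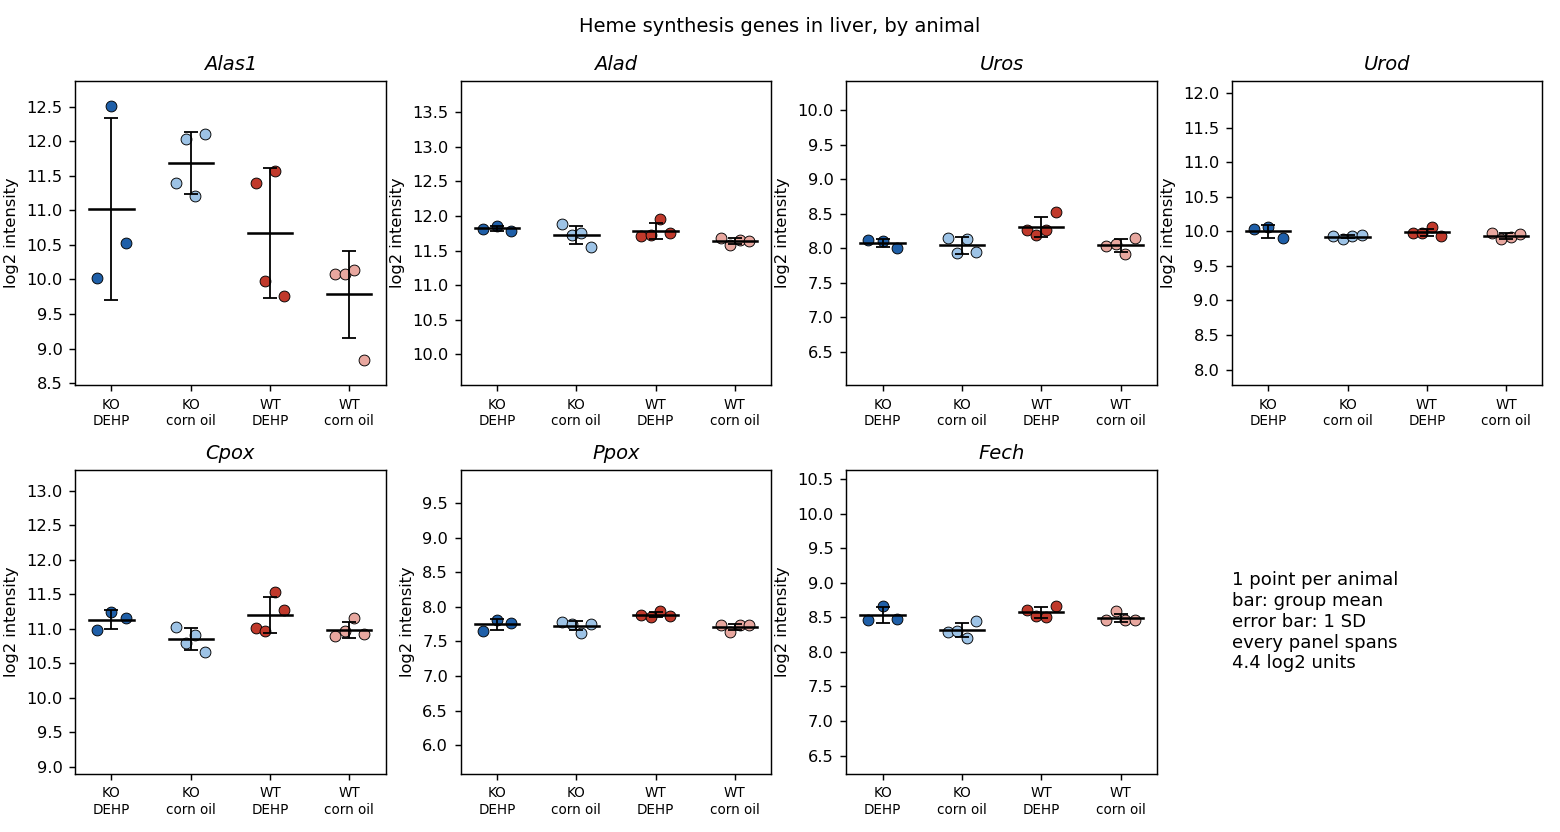
The log2 intensity of each heme synthesis gene is plotted for every animal in the groups KO DEHP, KO corn oil, WT DEHP and WT corn oil, with the group mean as a bar and 1 SD as the error bar; every panel spans the same 4.4 log2 units. The points of Alas1 spread over 3.68 log2 units, and those of the other 6 genes over 0.18 to 0.86.

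Alas1, the rate-limiting enzyme, was the member with the largest differences and by far the largest spread. It read 10.03, 12.51 and 10.52 in KO given DEHP, and 11.40, 12.03, 11.21 and 12.11 in KO given corn oil. The treated KO animals straddled their controls: KO-122 was above all 4 and the other 2 were below all 4. The log2 difference was -0.67 ± 0.55 (SE; limma's adjusted p = 0.688), with a 95% interval from -1.82 to 0.49. Without KO-122 it was -1.41, and without KO-121 it was -0.17.

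In WT mice, Alas1 read 11.39, 9.98, 11.56 and 9.75 after DEHP, and 8.83, 10.14, 10.08 and 10.09 after corn oil. The treated animals formed a high pair, WT-56 and WT-58, and a low pair, WT-57 and WT-59. The low pair lay within the range of the controls only through WT-52, at 8.83, and below the other controls, at 10.08 to 10.14. The log2 difference was 0.89 ± 0.50 (SE; adjusted p = 0.406), which is 1.85-fold with a 95% interval from 0.882-fold to 3.89-fold. Leaving out WT-52, the lowest of all 15 animals, gave 0.57. The DEHP difference in KO mice minus that in WT mice was -1.56 ± 0.74 (adjusted p = 0.38, interval -3.13 to 0.02). That comparison called 0 of 7 members, where it called 0.898% of all genes, and no member had an unadjusted p under 0.05, while 13.4% of all genes had.

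The clearest separation of Alas1 was between the genotypes without DEHP. All 4 KO animals given corn oil, at 11.21 to 12.11, were above all 4 WT animals given corn oil, at 8.83 to 10.14. The log2 difference was 1.90 ± 0.50, or 3.74-fold with a 95% interval from 1.78 to 7.86, but its adjusted p of 0.0946 in limma missed the threshold. With a spread estimated from those 8 arrays alone the adjusted p was 0.0123, and over the fits that each left out 1 animal the difference was 1.59 to 2.06 and the adjusted p 0.121 to 0.243; the lowest difference was the one without WT-52. Members called in that comparison numbered 0 of 7, against 1.19% of all genes, and Alas1 and Fech had an unadjusted p under 0.05, as had 12.0% of all genes. Of the other cell types' markers, the summed stellate cell markers also did not overlap there, at 11.16 to 11.70 in KO given corn oil and 10.84 to 11.07 in WT given corn oil; their part in the Alas1 difference was not tested.

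Under DEHP the genotypes did not separate. Alas1 averaged 11.02 ± 1.32 (SD, n = 3) in KO given DEHP and 10.67 ± 0.94 (SD, n = 4) in WT given DEHP, a difference of 0.35 ± 0.55 (adjusted p = 0.784) that turned to -0.40 without KO-122. Over the 4 groups the means ran from 11.69 ± 0.45 (SD) in KO given corn oil, through KO given DEHP and WT given DEHP, to 9.78 ± 0.64 (SD) in WT given corn oil. No neighbours in that order differed beyond their spread.

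**Figure D2:**
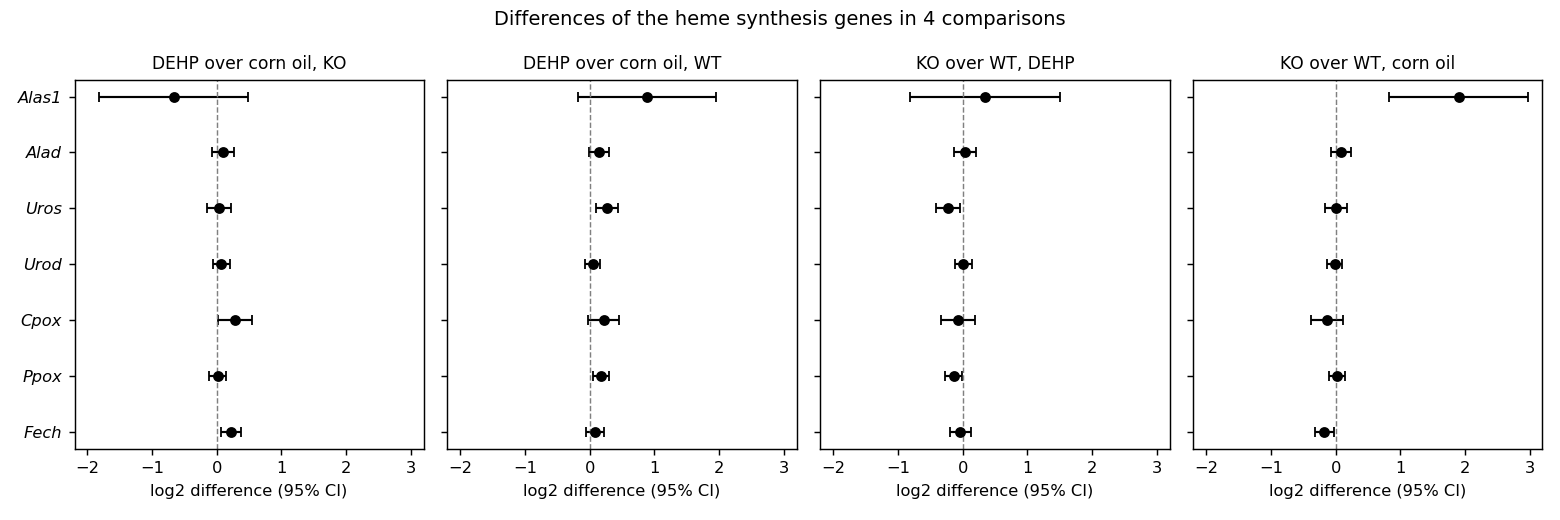
Log2 differences of the 7 heme synthesis genes with their 95% intervals are plotted in 4 comparisons, DEHP over corn oil in KO and in WT mice and KO over WT under DEHP and under corn oil. The Alas1 interval is the widest in each panel and clears 0 only for KO over WT under corn oil, at 0.833 to 2.975, before adjustment over all genes.

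The cytosolic enzymes came next in the pathway. Alad makes the pyrrole unit porphobilinogen. It read 11.82, 11.86 and 11.78 in KO given DEHP, against 11.88, 11.72, 11.75 and 11.55 in KO given corn oil, and 11.71, 11.72, 11.95 and 11.75 in WT given DEHP, against 11.64, 11.65, 11.58 and 11.69 in WT given corn oil. The WT groups did not overlap and the KO groups did, with differences of 0.10 ± 0.08 in KO (adjusted p = 0.683) and 0.145 ± 0.072 in WT (adjusted p = 0.329).

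Uros closes the tetrapyrrole ring, and it came nearest to the threshold among the DEHP differences. It read 8.27, 8.19, 8.26 and 8.52 in WT given DEHP, against 8.15, 7.92, 8.06 and 8.03 in WT given corn oil. All treated WT animals were above all controls, by 0.27 ± 0.08 or 1.21-fold (adjusted p = 0.0772). The summed hepatocyte markers and the summed erythroid markers, the erythroid ones at 10.28 to 10.76 in WT given DEHP and 10.81 to 10.83 in WT given corn oil, were both lower without overlap in the same comparison. The erythroid sum consists mostly of Alas2, the erythroid form of the first enzyme. The part of both marker sets in the differences of Alad, Uros and Ppox between these groups was not tested. In KO mice Uros read 8.12, 8.10 and 8.01 after DEHP, against 8.15, 7.93, 8.14 and 7.94 after corn oil, a difference of 0.04 ± 0.09 (adjusted p = 0.912). The difference between the genotypes in that response was -0.23 ± 0.12 (adjusted p = 0.414). Under DEHP, Uros was lower in KO than in WT with no overlap, at -0.23 ± 0.09 (adjusted p = 0.107), while both genotypes averaged 8.04 under corn oil. In that comparison under DEHP the marker sums of 3 other cell types were higher in KO without overlap. The endothelial sum was 11.05 to 11.20 in KO and 10.70 to 10.87 in WT, with 3 of 5 markers called higher, where 5.09% of all genes were. The stellate sum was 11.11 to 11.55 in KO and 10.83 to 10.93 in WT, with 2 of 5 called. The erythroid sum, mostly Alas2, was 10.85 to 11.16 in KO and 10.28 to 10.76 in WT, with 1 of 9 called, Alas2 itself. Their part in the Uros difference was not tested.

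Urod, which trims the ring's acid side chains, was the steadiest member. Its 15 values lay between 9.88 and 10.07, a 1.13-fold range. The DEHP difference was 0.07 ± 0.06 in KO mice and 0.05 ± 0.05 in WT mice, and the groups overlapped in both (adjusted p = 0.683 and 0.733). Its 95% interval after DEHP reached 1.15-fold in KO and 1.12-fold in WT.

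Cpox, Ppox and Fech carry out the last steps in the mitochondrion. Cpox read 10.98, 11.25 and 11.16 in KO given DEHP, against 11.03, 10.80, 10.92 and 10.67 in KO given corn oil, and 11.01, 10.97, 11.53 and 11.27 in WT given DEHP, against 10.92, 11.15, 10.96 and 10.90 in WT given corn oil. Both pairs of groups overlapped, with differences of 0.28 ± 0.12 in KO mice (adjusted p = 0.376) and 0.214 ± 0.115 in WT mice (adjusted p = 0.379). WT-58 was the highest of all 15.

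Ppox oxidizes protoporphyrinogen to protoporphyrin. It read 7.89, 7.85, 7.94 and 7.87 in WT given DEHP, against 7.73, 7.74, 7.64 and 7.73 in WT given corn oil. The groups were narrow and did not overlap, and the difference was 0.175 ± 0.057 or 1.13-fold (adjusted p = 0.113). In KO mice the difference was 0.02 ± 0.06 (adjusted p = 0.952), with values of 7.66 to 7.82 after DEHP and 7.63 to 7.78 after corn oil. Under DEHP, Ppox was lower in KO than in WT with no overlap, at -0.14 ± 0.06 (adjusted p = 0.178). The endothelial, stellate and erythroid marker sums were higher in KO without overlap in that comparison too, with the values given for Uros, and their part was not tested.

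Fech inserts the iron. It read 8.46, 8.67 and 8.48 in KO given DEHP, against 8.29, 8.30, 8.21 and 8.45 in KO given corn oil. The treated KO animals were all above their controls, with the nearest at 8.46 and 8.45, and the difference was 0.22 ± 0.07 or 1.17-fold (adjusted p = 0.202). The summed endothelial markers also did not overlap there, at 11.05 to 11.20 in KO given DEHP and 10.85 to 11.00 in KO given corn oil, and their part in the Fech difference was not tested. In WT mice the difference was 0.08 ± 0.07 (adjusted p = 0.633), with values of 8.50 to 8.67 after DEHP and 8.46 to 8.59 after corn oil. Under corn oil the KO animals were all below the WT animals in Fech, the nearest at 8.45 and 8.46, with a log2 difference of -0.18 ± 0.07 (adjusted p = 0.29).

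Counted over the members, DEHP left 3 of 7 without overlap in WT mice, all higher (Alad, Uros and Ppox), where 11.9% of all genes did not overlap and 6.1% were higher. In KO mice it left 1 of 7, Fech, higher, where 9.99% of all genes did not overlap and 5.57% were higher. Between the genotypes under DEHP, 2 of 7 did not overlap, both lower in KO (Uros and Ppox), where 20.5% of all genes did not overlap and 9.51% were lower. Under corn oil 2 of 7 did not overlap, Alas1 higher and Fech lower in KO, where 7.72% of all genes did not overlap, 4.06% being higher and 3.67% lower. The comparison of KO with WT under DEHP called 0 of 7 members with limma, against 10.7% of all genes, and Uros and Ppox had an unadjusted p under 0.05, as had 23.0% of all genes. The DEHP comparisons and the genotype comparisons share animals, so their values for a gene are not independent.

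Within groups, Alas1 varied far more between animals than its pathway partners. Its SD between animals of the same group was 0.848 log2 units, the 12th highest among 9860 genes with a mean log2 level of at least 6, where the median gene had 0.103. The highest animal, KO-122 given DEHP, was 12.8-fold above the lowest, WT-52 given corn oil. Cpox had the next largest SD, 0.179, with 90.1% of genes below it. Uros, Alad and Fech, at 0.113, 0.095 and 0.089, lay near the median gene, and Ppox and Urod, at 0.060 and 0.053, had 7.05% and 3.63% of genes below them.

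**Figure D3:**
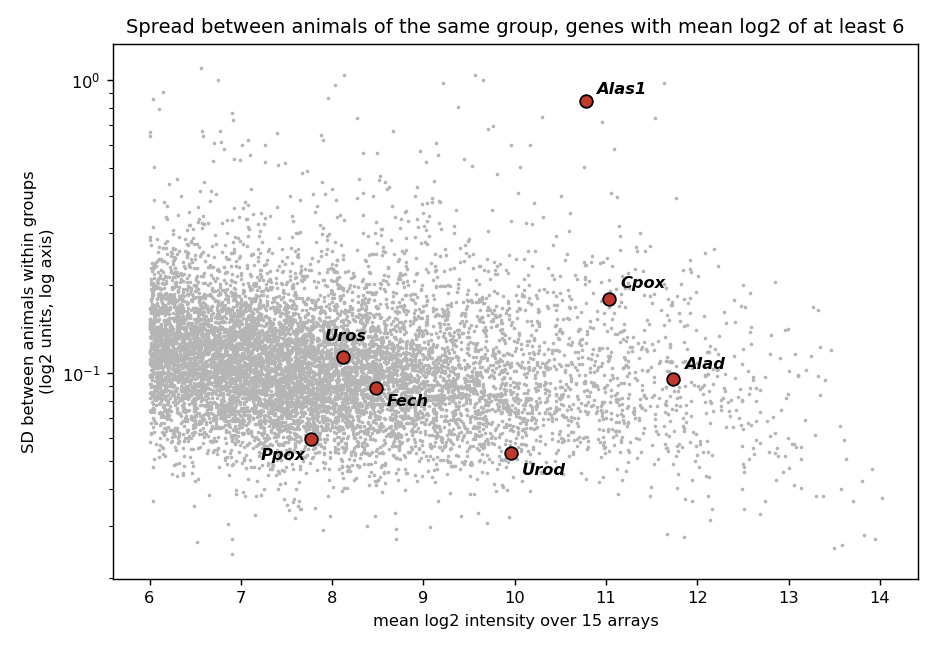
The SD between animals of the same group (log2 units, on a log axis) is plotted against the mean log2 intensity for 9860 genes, with the heme synthesis genes as labelled red points. Alas1 at 0.848 sits at the upper edge of the cloud, Cpox at 0.179 above its middle, and the other 5 genes at 0.053 to 0.113.

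The members did not all follow Alas1 from animal to animal. With each group's mean removed, the correlation with Alas1 over the 15 arrays was highest for Ppox at 0.553 and Fech at 0.441, and lowest for Uros at -0.44; for Alad and Cpox it was 0.135 and 0.282. The closest pair of members was Alad and Cpox, at 0.772. All members were read from the same 15 arrays, and the correlations are descriptions over those 15 points. KO-122, the highest in Alas1, was above its group mean in 7 of 7 members and the highest of its group in 6. WT-58 was the highest of its group in 5 members, whereas WT-57 was above its group mean in none.

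Cytochrome P450 genes, the main users of heme in hepatocytes, changed in both genotypes after DEHP. Of 82 measured P450 genes with symbols of 1 common form, 5 rose and none fell in KO mice, where 0.16% of all genes rose and 0.311% fell. In WT mice 10 of the 82 rose and 11 fell, where 2.29% of all genes rose and 1.57% fell. Cyp51 and Cyp4a12a, measured but outside the 82, were also called higher in WT mice, and neither was called in KO mice. The Cyp51 call held without any 1 animal, and the Cyp4a12a call was lost in all 8 fits that each left out 1 animal. The 5 that rose in KO mice were Cyp2c55 at 4.22-fold, Cyp2b10 at 2.93-fold, Cyp3a44 at 1.86-fold, Cyp2c37 at 1.85-fold and Cyp2c29 at 1.55-fold (adjusted p from 3.86e-05 to 0.0351), all on the list of P450s known to respond to CAR or PXR. Of the 16 measured genes on that list, 5 rose in WT mice as well and 3 fell. Without KO-122 the adjusted p of Cyp3a44 was 0.172 and that of Cyp2c37 0.0885, and the calls of Cyp2c55, Cyp2b10 and Cyp2c29 held without any 1 animal. Those fits took the spread from all groups. With only the KO groups in the model most of the 5 calls were lost, by the count of all genes called that is given at the end. Cyp2c55 was dim, at 16.6 to 26.4 on the linear scale in KO given corn oil and 70.4 to 112 in KO given DEHP, where array medians were 44.4 to 47.53. In WT mice the largest rises were those of Cyp4a14 at 31.3-fold, Cyp4a31 at 19.8-fold and Cyp4a10 at 8.42-fold, which oxidize fatty acids, and of Cyp7a1, which starts bile acid synthesis, at 3.2-fold (adjusted p = 0.0331, and 0.0979 without WT-56, the call being lost in 6 of the 8 fits that each left out 1 animal). The CAR and PXR genes that rose in WT mice were Cyp2c38 at 2.12-fold, Cyp3a44 at 1.63-fold, Cyp3a13 at 1.56-fold, Cyp2c39 at 1.51-fold and Cyp3a11 at 1.38-fold (adjusted p from 0.00276 to 0.0225), of which the calls of Cyp3a13 and Cyp3a11 held without any 1 animal. The adjusted p was 0.0654 for Cyp2c38 and 0.0724 for Cyp2c39 without WT-55, and 0.0652 for Cyp3a44 without WT-54. Those that fell were Cyp2c54 at 0.699-fold, Cyp2c37 at 0.701-fold and Cyp1a2 at 0.799-fold (adjusted p from 0.0286 to 0.0452), with adjusted p of 0.0755 without WT-54, 0.115 without WT-58 and 0.0886 without WT-52. The largest called falls among the 82 in WT mice were those of Cyp2c70 at 0.623-fold and Cyp2u1 at 0.676-fold (adjusted p = 0.0135 and 0.00235). The DEHP difference in KO minus that in WT was called above 0 for 6 of the 16 CAR and PXR genes and below 0 for none. Over all genes it was called for 0.898%, counting both directions. Genes of the Cyp2c, Cyp3a and Cyp4a families are close copies, and their probes may read more than 1 of them.

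Cyp2b10, the usual marker of CAR, was set beside Alas1. It read 8.43, 8.91 and 8.23 in KO given DEHP, against 6.76, 6.83, 6.92 and 7.37 in KO given corn oil, a rise with no overlap (adjusted p = 0.000635). It read 8.77, 8.32, 8.68 and 8.86 in WT given DEHP, against 8.16, 8.24, 8.25 and 8.13 in WT given corn oil, a log2 difference of 0.46 ± 0.15 that missed the threshold (adjusted p = 0.115). Under corn oil Cyp2b10 was lower in KO than in WT, with a log2 difference of -1.23 ± 0.15 (adjusted p = 0.000269). In the same animals Alas1 was 3.74-fold higher, a difference that missed the threshold. In the KO mice given DEHP, where Cyp2b10 and Cyp2c55 rose, 2 of 3 animals had less Alas1 than any KO control. The remaining animal, KO-122, had the highest Cyp2b10 of that group, at 8.91, and more Alas1 than any KO control, at 12.51.

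In WT mice the Cyp4a response was uniform while Alas1 was not. Cyp4a14 read 13.39, 13.43, 13.50 and 13.40 in the treated WT animals, against 8.12, 9.52, 8.34 and 7.87 in their controls, whereas Alas1 ran from 9.75 to 11.56 in the same treated animals.

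The 82 P450 intensities were also summed, as an index in which each probe set counts by its own brightness. The sum leaves out measured P450 genes whose symbols have another form, among them Cyp51 and the bright Cyp4a12a. On the linear scale Cyp4a12a averaged 4950 in KO given DEHP and 4060 in KO given corn oil. It averaged 6590 in WT given DEHP and 4900 in WT given corn oil. A sum that includes such genes was not tested, so the values below hold for the 82 only. The log2 sum averaged 17.038 ± 0.094 (SD, n = 3) in KO given DEHP and 16.825 ± 0.075 (n = 4) in KO given corn oil, 1.16-fold, with a two-sided exact permutation p of 0.0571, the smallest that 3 against 4 animals can give. It averaged 17.035 ± 0.063 in WT given DEHP and 16.918 ± 0.043 in WT given corn oil, 1.08-fold, with an exact p of 0.0571 where 0.0286 was the smallest possible (n = 4 each). Under corn oil the sum was 0.937 of the WT level in KO (exact permutation p = 0.0571). The group with the most Alas1, KO given corn oil, was also the group with the lowest mean P450 sum.

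Animal by animal, with group means removed, Alas1 was set against that sum and 8 P450 genes, 9 relations in all, by permuting animals within groups 100000 times. None passed after adjustment over the 9. The correlation with the sum was -0.06 (Spearman's rho -0.06, permutation p = 0.879 and 0.877), and r was -0.279 with quantile normalization and -0.403 without the 2 animals farthest from the median, KO-121 and KO-117 (adjusted permutation p = 0.741 and 0.43). Cyp2c29 had the highest, with r = 0.599 (permutation p = 0.0128, adjusted 0.116) and rho = 0.589 (p = 0.0357, adjusted 0.321), and r was 0.703 without the 2 animals farthest from its median (permutation p = 0.0623, adjusted 0.43) and 0.539 with quantile normalization (adjusted permutation p = 0.379). Cyp2b10 had r = 0.535 and rho = 0.504 (adjusted permutation p = 0.585 and 0.561), and r was 0.285 without those farthest for it, one of them KO-122. For Cyp2c55, Cyp3a11, Cyp1a2, Cyp4a10, Cyp4a14 and Cyp7a1, r lay between -0.27 and 0.07 with adjusted permutation p of 0.771 to 0.879, and between -0.471 and -0.241 without the 2 animals farthest for each (adjusted permutation p of 0.43 to 0.47).

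**Figure D4:**
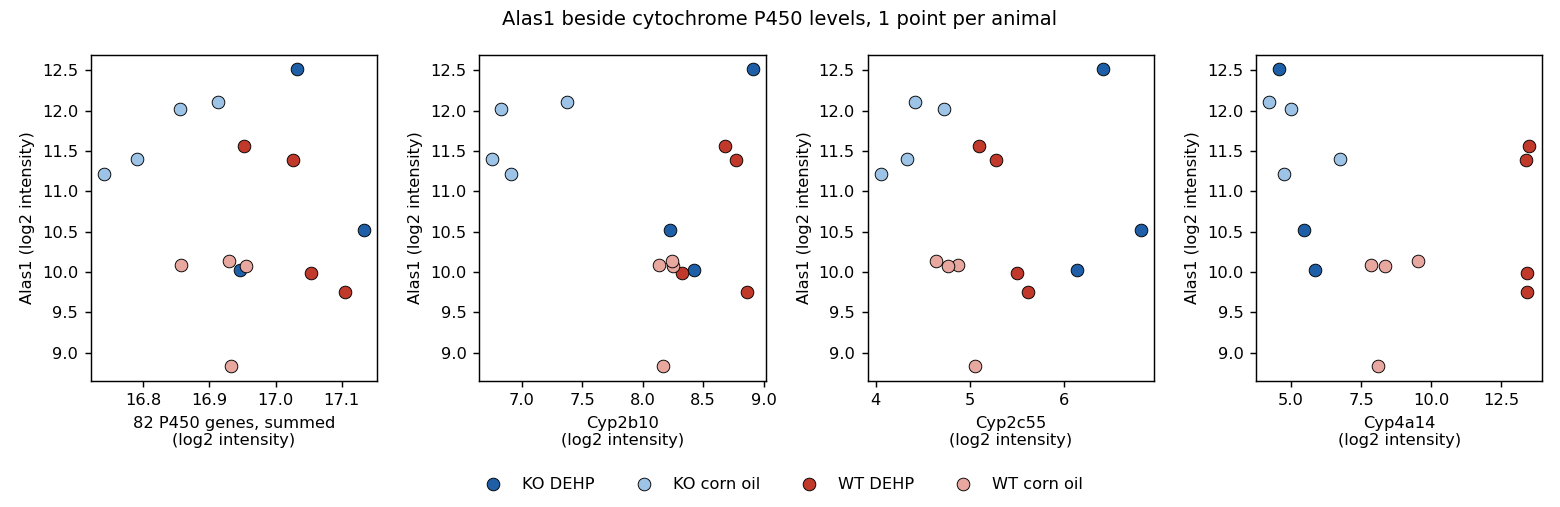
Alas1 is plotted against the summed intensity of 82 P450 genes, Cyp2b10, Cyp2c55 and Cyp4a14, all as log2 intensity, with 1 point per animal coloured by group. The KO corn oil animals lie high in Alas1, at 11.21 to 12.11, and low in Cyp2b10, at 6.76 to 7.37, and the WT DEHP animals share 1 Cyp4a14 level of about 13.4 while their Alas1 runs from 9.75 to 11.56.

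The genes around the pathway were counted in 8 lists with 88 measured genes. After DEHP limma called 0 of the 88 in KO mice and 12 in WT mice, where it called 0.471% and 3.86% of all genes. An unadjusted p under 0.05 was found for 20 of the 88 in KO mice and 28 in WT mice, and for 12.3% and 16.8% of all genes. Of 4 heme breakdown genes, 1 rose in WT mice and none was called in KO mice: Blvrb, a biliverdin reductase, read 9.90, 9.98, 10.18 and 9.69 in WT given DEHP, against 9.30, 9.31, 9.31 and 9.41 in WT given corn oil, 1.52-fold with no overlap (adjusted p = 0.00163). In KO mice its difference was 0.255 (adjusted p = 0.302). Hmox1, which opens the heme ring and is induced by heme, differed by 0.255 ± 0.146 in KO mice and 0.060 ± 0.135 in WT mice (adjusted p = 0.515 and 0.886).

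Of 19 transport genes measured, 2 rose in WT mice after DEHP, where 2.29% of all genes rose. Abcg2, an exporter of porphyrins, read 9.90, 9.99, 10.24 and 10.42 in WT given DEHP, against 9.54, 9.67, 9.64 and 9.48 in WT given corn oil, 1.47-fold (adjusted p = 0.00561), and differed by -0.01 in KO mice (adjusted p = 0.989). Tspo, an outer mitochondrial membrane protein that binds porphyrins, rose 1.26-fold in WT mice (adjusted p = 0.0205, and 0.0669 without WT-56). Slc25a38, which carries glycine into mitochondria for the ALAS step, differed by 0.03 in KO mice and -0.04 in WT mice (adjusted p = 0.886 and 0.79). Under DEHP, 2 of the 19 were higher and 5 lower in KO than in WT, beside 5.09% and 5.61% of all genes, among them Abcg2 with a log2 difference of -0.74 ± 0.11 (adjusted p = 0.000498).

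Supply genes gave a few calls, again in WT mice. Of 6 genes that process ALAS1 protein or make its substrate, 2 rose in WT mice after DEHP, where 2.29% of all genes rose. They were the succinyl-CoA ligase subunits Suclg1 and Suclg2, both 1.28-fold (adjusted p = 0.0145 and 0.00397). In KO mice neither was called. Suclg2 there read 10.917 to 11.13 after DEHP and 10.659 to 10.857 after corn oil, higher without overlap, as were 5.57% of all genes. Suclg1 read 9.729 to 10.045 and 9.979 to 10.327, with overlap. Clpx, the mitochondrial unfoldase that acts on ALAS, differed by 0.21 ± 0.20 in WT mice (adjusted p = 0.674). Of 9 glycine and precursor genes, 1 rose in WT mice, Gcsh of the glycine cleavage system, 1.33-fold (adjusted p = 0.0137, and 0.0544 without WT-53). Of 16 iron and iron-sulfur genes none was called in limma's test after DEHP in either genotype. An unadjusted p under 0.05 was found for 4 in KO mice and 5 in WT mice, beside 12.3% and 16.8% of all genes.

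Of 11 other heme enzymes and heme-binding proteins measured, 2 rose and 1 fell in WT mice, where 2.29% of all genes rose and 1.57% fell. Cytochrome c (Cycs) rose 1.39-fold and haptoglobin (Hp), which binds free hemoglobin, 1.44-fold (adjusted p = 0.0144 and 0.0123, that of Cycs being 0.0543 without WT-53), while Ido2, a tryptophan dioxygenase, fell to 0.802-fold (adjusted p = 0.034, and 0.104 without WT-56). The heme enzymes catalase (Cat) and Tdo2 differed by 0.01 and -0.08 (adjusted p = 0.97 and 0.686). Cyb5b, an outer-membrane cytochrome b5 that passes electrons, rose 1.30-fold in WT mice (adjusted p = 0.00585). In KO mice it read 10.865 to 11.05 after DEHP and 10.454 to 10.679 after corn oil. It was higher there without overlap, as were 5.57% of all genes, but was not called.

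Of 19 measured genes known to regulate Alas1, 2 fell in WT mice after DEHP and none was called in KO mice. Of all genes, 1.57% fell in WT mice and 0.471% were called in KO mice. Nr1d1, the heme-binding repressor REV-ERBα, fell to 0.712-fold (adjusted p = 0.0354) and Foxo1 to 0.827-fold (adjusted p = 0.0351); these calls were lost in 6 and 7 of the 8 fits that each left out 1 animal, with adjusted p of 0.0935 without WT-54 and 0.117 without WT-53. CAR (Nr1i3), PXR (Nr1i2) and Ppargc1a, which encodes PGC-1α, were not called in any of the 4 comparisons. Between the genotypes under DEHP, 3 of the 19 were higher and 2 lower in KO than in WT, where 5.09% of all genes were higher and 5.61% lower. Hnf4a, a hepatocyte receptor, was 1.26-fold higher (adjusted p = 0.00995, and 0.0627 without KO-122), Rxra, the partner of PPARα, CAR and PXR, 1.24-fold (adjusted p = 0.0224, and 0.148 without KO-122) and Foxo1 1.18-fold (adjusted p = 0.0478, and 0.143 without KO-123). The 2 lower were Ppara and Esrrg, at -0.64 ± 0.13 and -0.43 ± 0.12 (adjusted p = 0.00422 and 0.0324, that of Esrrg being 0.201 without KO-122). Under corn oil, the 2 genes called, both lower in KO than in WT (0.547% of all genes were lower and 0.642% higher), were Ppara itself and the orphan receptor Esrrg, at -0.69 ± 0.12 and -0.67 ± 0.11 (adjusted p = 0.00645 and 0.00582).

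Alas2, the erythroid form of the first enzyme, is not a hepatocyte gene and was read separately. It read 10.76, 10.55 and 10.87 in KO given DEHP, against 10.90, 10.79, 10.48 and 10.61 in KO given corn oil, and 10.03, 10.12, 9.79 and 10.46 in WT given DEHP, against 10.54, 10.54, 10.53 and 10.52 in WT given corn oil. All 4 treated WT animals were below their controls, with a log2 difference of -0.43 ± 0.12 (adjusted p = 0.0546), and under DEHP Alas2 was higher in KO than in WT, by 0.63 ± 0.13 (adjusted p = 0.00501). The summed level of 9 erythroid markers, Alas2 among them, was 10.85 to 11.16 in KO given DEHP, 10.78 to 11.21 in KO given corn oil, 10.28 to 10.76 in WT given DEHP and 10.81 to 10.83 in WT given corn oil. Alas2 made up most of this sum, so the sum is no reading apart from Alas2. Of the 9 markers 7 had a mean below 6, and the part of blood cells in the Alas2 difference was not tested.

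Genes whose pattern over the 15 arrays was most like that of Alas1, among 9859 with a mean log2 level of at least 6, were C4a (a complement component with a close copy in the mouse), Baz1a (a chromatin remodelling subunit), Cpne2 (a copine), Sgms1 (a sphingomyelin synthase) and P2rx4 (an ATP-gated channel), with Pearson's r of 0.806 to 0.858. With group means removed they were Cpne2, Flot1 (a flotillin), Met (the receptor of hepatocyte growth factor), Sgms1 and Papola (a poly(A) polymerase), with r of 0.85 to 0.919. Of the 82 P450 genes, those at that level most like Alas1 on the plain values were Cyp2e1, Cyp4f16 and Cyp2d12, at 0.607, 0.594 and 0.394. With group means removed they were Cyp2d26, Cyp2c29 and Cyp2b10, at 0.658, 0.599 and 0.535. Among the regulators, with group means removed, r ran from -0.456 for Nfe2l2 to 0.717 for Ppara, whose r on the plain values was -0.307. The D-box factors Dbp, Tef and Hlf had 0.685, 0.62 and 0.321, Rxra and Nr1d2 had 0.657 and 0.6, and Nr1i3 and Ppargc1a had 0.21 and 0.223. These values describe 15 arrays of 4 groups and carry no test.

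Dbp, an output gene of the circadian clock, itself varied between animals of a group. It read 9.13, 9.56 and 8.88 in KO given DEHP and 9.38, 10.02, 8.53 and 9.83 in KO given corn oil, and 8.78, 8.24, 9.97 and 8.19 in WT given DEHP and 8.86, 8.80, 9.23 and 9.64 in WT given corn oil. KO-122 and WT-58, highest of their treated groups in Alas1, were also highest of them in Dbp. The corn oil groups did not share this. WT-53, highest of its group in Alas1, was the lowest in Dbp at 8.80, and KO-118, highest of its group in Alas1, read 9.83 in Dbp, below KO-116 at 10.02. The labels do not give the hour of killing, and its part in the Alas1 spread was not tested.

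The 9 glycine and precursor genes were spread, with r from -0.733 for Shmt1 to 0.467 for Ogdh when group means were removed, Gcsh and Shmt2 standing at 0.079 and 0.203. Gldc, of the glycine cleavage system, and Shmt1, which interconverts serine and glycine, correlated with Alas1 at -0.831 and -0.781 over the 15 arrays and at -0.684 and -0.733 with group means removed. Gldc read 10.41 to 10.92 in KO given DEHP, 10.35 to 10.65 in KO given corn oil, 10.59 to 10.95 in WT given DEHP and 10.81 to 11.00 in WT given corn oil. Gldc and Shmt1 were singled out after their values were seen, and neither was called in any comparison.

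**Figure D5:**
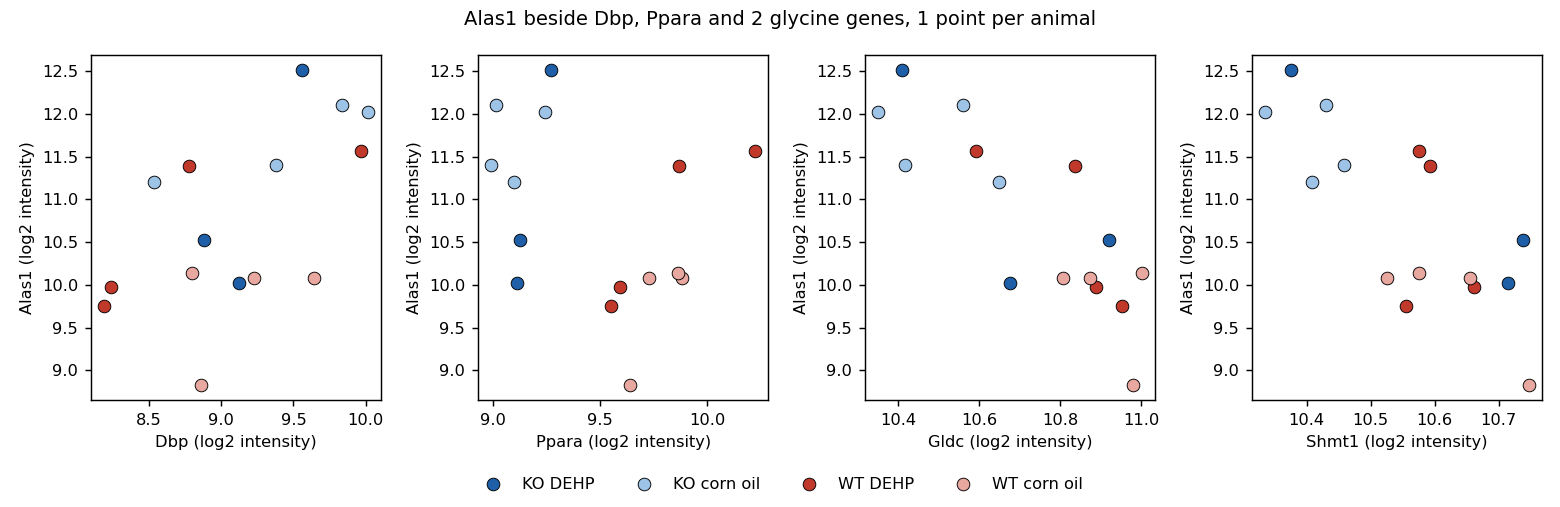
Alas1 is plotted against Dbp, Ppara, Gldc and Shmt1, all as log2 intensity, with 1 point per animal coloured by group. Gldc and Shmt1 slope down against Alas1 over all animals, and Ppara falls into a KO cloud at 8.99 to 9.27 and a WT cloud at 9.55 to 10.22. The WT cloud slopes up, and the KO cloud has no clear slope. KO-122 and KO-116, at 12.51 and 12.03 in Alas1, had the highest Ppara of the KO animals, at 9.27 and 9.24. KO-118, at 12.11 in Alas1, read 9.01 in Ppara, and KO-121, at 10.03 in Alas1, read 9.11.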

How the data were processed

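The authors deposited 1 linear intensity per probe set and array, already on a common scale; the sources used here name neither the software that normalized them nor any batch. Per the labels' protocols, RNA was isolated with a mirVana kit and 300 ng was labelled with the Affymetrix WT cDNA kit. The annotation gave 1 symbol to 21789 of the 35494 probe sets, several to 1621 and no symbol to 12084. For the 999 genes with several, the probe set with the highest mean was kept, giving 19938 genes, without a filter on dim values.

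Log2 values of all 15 arrays were fitted with 1 mean per group in limma 3.58.1 (R 4.3.3; residual degrees of freedom 11, prior 4.68), which was tested on simulated data. Members, lists and tests were chosen with earlier results of these data known; the exact permutation of the P450 sum was added after seeing the data. Named genes were all members, fixed genes, up to 4 called genes per list and comparison, the largest P450 changes and the 5 genes most like Alas1. The called CAR and PXR genes in WT mice outside that rule were named after their values were seen. P450 genes were those whose symbol is Cyp with a family number, subfamily letter and number. This form leaves out symbols such as Cyp51 and Cyp4a12a. Alternatives were quantile normalization, log2(value + 16), a mean log2 of at least 6, the mean of probe sets, an intensity trend, array weights, fewer groups in the model, and each animal left out. No depth applies to arrays; their number limits precision.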

Additional observations from a re-analysis of the deposited data

Results flagged for a closer look

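Of 75 gene and group sets of 4 animals, 6 held an animal far from the other 3, where chance gives about 1 in 20. Alas1 was 8.83 in WT-52 and 10.08 to 10.14 in the others. Ppox was 7.64 in WT-54, against 7.73 to 7.74, and 7.63 in KO-117, against 7.75 to 7.78. Fech was 8.59 in WT-54, against 8.45 to 8.47. Cyp4a10 was 5.87 in KO-115, against 4.86 to 5.01, and Blvrb 9.41 in WT-55, against 9.31 in the others.

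The DEHP difference in KO mice minus that in WT mice passed limma's test for none of the 7 heme synthesis genes but for several named genes around them. It was above 0 for Cyp2b10 at 1.09 (adjusted p = 0.0308), Cyp2c55 at 1.54 (0.00604), Cyp2c37 at 1.4 (0.00422), Cyp2c54 at 1.04 (0.0163), Cyp2c29 at 0.53 (0.0224), Cyp1a2 at 0.63 (0.0185) and Ido2 at 0.69 (0.0142). It was below 0 for Cyp4a14 at -4.84 (adjusted p = 0.00257), Cyp4a31 at -3.95 (0.00257), Cyp4a10 at -3.18 (0.000157), Cycs at -0.66 (0.048), Suclg1 at -0.6 (0.0208) and Tspo at -0.59 (0.0204). The value for Alas1 was -1.56 (adjusted p = 0.38).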

How the results depend on the processing

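Of 553 recomputed member differences, 523 kept their direction and their side of the threshold, 6 newly passed it, none was lost and 24 turned sign, all with adjusted p of 0.758 or more; the causes were not tested. In WT mice DEHP called Uros and Ppox (2 genes) with a mean log2 of at least 6, at 0.271 and 0.175 (adjusted p = 0.033 and 0.0405), Ppox alone (1 gene) with log2(value + 16), at 0.163 (0.0459), and Uros alone (1 gene) with array weights, at 0.268 (0.0493). With that filter, under which fewer genes were tested, Uros was also called lower in KO than in WT under DEHP (1 gene), at -0.233 (0.0481). With only the groups compared, Alas1 was called higher in KO under corn oil (1 gene), at 1.9 (0.0123).

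Quantile normalization turned Alad to -0.0144 for DEHP in KO mice and to -0.0231 for KO over WT under DEHP, and under corn oil Uros to -0.00596 and Urod to 0.0044. It turned the correlation of Alas1 with Cyp3a11 to -0.134, and leaving out the 2 animals farthest from the median turned it to -0.382. Leaving out 1 animal gave, for KO over WT under DEHP, -0.398 (without KO-122) to 0.844 for Alas1, -0.141 to 0.0467 for Cpox, -0.0997 to 0.00298 for Fech and -0.0218 to 0.0615 for Urod. It gave, under corn oil, -0.00495 to 0.0524 for Ppox, -0.0256 to 0.00251 for Urod and -0.0405 to 0.037 for Uros, and for DEHP in KO mice -0.0186 to 0.0621 for Ppox. For the difference between genotypes in the DEHP response it gave -0.106 to 0.00667 for Alad, -0.0119 to 0.176 for Cpox and -0.0109 to 0.0724 for Urod.

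The number of all genes called after DEHP in KO mice was 94, against 161 with quantile normalization, 287 with log2(value + 16), 432 with the filter, 274 with the intensity trend, 56 with array weights, 1 with only those groups and 9 (without KO-122) to 168 (without KO-116) with 1 animal left out. In WT mice it was 770, and 433 (without WT-53) to 614 with 1 animal left out. The difference between genotypes called 179, against 418 with log2(value + 16), 574 with the filter, 404 with the trend and 61 (without WT-53) to 299 (without KO-116) with 1 animal left out. KO against WT under DEHP called 2133, against 1331 with only those groups and 1019 (without KO-122) to 1950 with 1 animal left out.

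No paired analysis was possible because animal numbers are not shared between groups. Whether the arrays of a group come from separate litters is not given. With 3 or 4 animals and the spread seen for Alas1, the interval of its DEHP difference covers 0.882-fold to 3.89-fold in WT mice and 0.283-fold to 1.4-fold in KO mice, so changes within those bounds are not excluded.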
